A study of Mus musculus with 8 samples.

Results

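The genes described are 10 targets of the p53 tumour suppressor that act in cell cycle arrest and growth signalling: Cdkn1a, Btg2, Gadd45a, Gtse1, Plk2, Plk3, Sesn1, Sesn2, Phlda3 and Zmat3. They were taken by name, out of 21444 genes with counts, and all 10 passed the filter on low counts that left 10990 genes to test. The cells were primordial germ cells, from which sperm and eggs later arise, at embryonic day 11.5, and their RNA was sequenced. The 4 Prmt5 KO libraries have the genotype Blimp1Cre;Prmt5flox/flox, and the 4 Control libraries Blimp1Cre;Prmt5flox/+, so both groups carry Cre and at least 1 floxed copy of Prmt5, which encodes an arginine methyltransferase. All embryos had a mixed C57BL/6 and 129 background and a green fluorescent reporter, dPE_Oct4 GFP, by which the cells were sorted. Blimp1 is also active in some embryonic cells outside the germ line. Nothing in the labels states if replicates are different embryos, litters or pools, and p-values therefore reflect only the spread among the 8 libraries, some of which may be technical.

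The p53 protein is a transcription factor that is stabilised when DNA is damaged or when its ubiquitin ligase MDM2 is held off. It binds a DNA site made of a pair of 10-base motifs, and the genes it switches on halt the cell cycle, slow growth, repair DNA or kill the cell. The arrest arm runs through p21, the protein of Cdkn1a, which blocks cyclin-dependent kinases, and the growth arm through sestrins and Phlda3, which restrain mTOR and Akt. In mouse germ cells p53 is known for removing cells with damaged genomes.

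The promoters of the 10 genes were searched for p53 motifs because the genes are grouped as p53 targets. RefSeq promoter sequence on GRCm38.p6 (250 bases before to 50 after a start site) was at hand for 9 of the 10, with 12 start sites; Zmat3 had no entry. A single 10-base p53 motif without mismatch lay in 4 of the 12 promoters, those of Cdkn1a, Sesn1, Gtse1 and Gadd45a, against 8.36% of 32851 mouse promoters. A 20-base p53 site, made of a pair of motifs with no spacer and at most 1 mismatch, was found in 29 promoters (0.0883%), and 2 of these belong to the 10 genes, Cdkn1a and Gtse1. This longer search was chosen after the Cdkn1a sequence had been seen. Of the 29 genes 6 were expressed highly enough to be tested here, and their sites are shown so that they can be compared, with the core of each motif (bases 4 to 7 and 14 to 17) in capitals.
Cdkn1a, chr17:29090928-29090947, plus strand: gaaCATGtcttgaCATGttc
Gtse1, chr15:85859945-85859964, plus strand: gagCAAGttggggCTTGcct
Ccng1, chr11:40755462-40755481, minus strand: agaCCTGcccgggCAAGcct
Rps27l, chr9:66946296-66946315, plus strand: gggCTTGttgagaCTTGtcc
Mthfd1, chr12:76255090-76255109, plus strand: aaaCTTGctcagaCAGGccc
Sptbn4, chr7:27396234-27396253, minus strand: gagCTAGcctaggCTAGtct
The Sptbn4 site has no mismatch and the other 5 have 1 each. In the comparison of Prmt5 KO with Control the log2 fold changes of these genes were 1.97 for Ccng1 (cyclin G1), 1.53 for Cdkn1a, 0.73 for Gtse1, 0.46 for Rps27l, 0.30 for Mthfd1 and -0.36 for Sptbn4. Ccng1 was the 1 gene of these called after adjustment over all genes (adjusted p = 0.00137, edgeR quasi-likelihood test). A match is only a match of letters and does not show binding.

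The stretches around the matches in the 10 genes place them against the start sites. In them the capitals mark p53 motifs, or the CCAAT box (CCAAT or ATTGG), a common element of cell cycle promoters.
Cdkn1a upstream start, chr17:29090889-29090968, plus strand: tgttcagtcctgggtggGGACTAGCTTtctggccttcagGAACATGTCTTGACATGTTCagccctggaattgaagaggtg
Gtse1 downstream start, chr15:85859886-85859964, plus strand: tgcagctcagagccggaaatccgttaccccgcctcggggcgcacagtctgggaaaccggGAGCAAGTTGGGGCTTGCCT
Gtse1 upstream start, chr15:85859597-85859666, plus strand: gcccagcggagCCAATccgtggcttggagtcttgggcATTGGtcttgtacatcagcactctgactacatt
Sesn1 downstream start, chr10:41887259-41887358, plus strand: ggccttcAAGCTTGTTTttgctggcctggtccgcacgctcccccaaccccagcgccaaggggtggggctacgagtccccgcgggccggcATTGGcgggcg
Gadd45a, chr6:67037423-67037502, minus strand: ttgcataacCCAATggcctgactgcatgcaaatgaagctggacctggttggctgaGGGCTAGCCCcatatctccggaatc
The Cdkn1a site begins 51 bases before the upstream of its start sites, from which transcript Cdkn1a-202 runs, and the Gtse1 site begins 1 base before the downstream start. The Sesn1 motif lies 173 bases before its downstream start and the Gadd45a motif 40 bases before its start. A CCAAT box was present for 5 of the 9 genes (Btg2, Sesn1, Sesn2, Gtse1 and Gadd45a), against 41.1% of 27025 genes. The cell cycle homology element (TTTGAA or TTCGAA on either strand) was in 0 of the 12 promoters, against 19.2% of all. These windows do not cover introns or more distant sequence.

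The libraries held between 1811428 and 6549504 gene counts, with Control 2 and Control 3 the shallowest. Levels are in CPM, counts scaled to a common library size. The targeted gene Prmt5 was at 26.4 to 40.5 CPM in Prmt5 KO and 89.4 to 172 CPM in Control, with no overlap (log2 fold change -1.95, adjusted p = 0.0389 in edgeR). That call held under 6 of 18 alternatives, with log2 fold changes of -2.25 to -1.54 over all of them. All 14 germ cell markers had counts, and of 13 tested 0 were called, with a median log2 fold change of 0.02 (-0.12 without Prmt5 KO 4); Kit, the most abundant, was at 1060 ± 69.2 CPM in Prmt5 KO and 1005 ± 102 CPM in Control (SD, n = 4 each). The smallest p of these markers belonged to Dazl and Nanog, with log2 fold changes of -0.61 and 0.24 (adjusted p = 0.759 and 0.831 in edgeR). Prmt5 KO 4 (-2.69 on dimension 1) and Prmt5 KO 1 (-2.26 on dimension 2) lay away from the other libraries in a multidimensional scaling plot. Of 15 markers of somatic gonad and mesonephros, all had counts, and their summed level was 778 CPM in Prmt5 KO 1, 176 to 217 CPM in the other 3 Prmt5 KO libraries and 140 to 218 CPM in Control. Outside Prmt5 KO 1 most of this sum was Mfge8, which was at 152 to 177 CPM in Prmt5 KO and 114 to 180 CPM in Control. Endothelial markers (8 with counts) summed to 302 to 405 CPM in Prmt5 KO and 284 to 366 CPM in Control, and blood markers (7 with counts of 10 listed) to 7.23 to 43.8 CPM and 21.8 to 44.5 CPM. Most of the endothelial sum was Pecam1, at 215 to 322 CPM in Prmt5 KO and 241 to 344.5 CPM in Control. Which cells the Pecam1 transcripts came from was not tested. The listed globin genes Hba-a1, Hba-a2 and Hbb-y were not among the genes with counts.

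As a set the 10 genes were at a higher level in Prmt5 KO than in Control. Their summed level was 667, 618, 680 and 647 CPM in Prmt5 KO 1 to 4 and 352, 320, 368 and 311 CPM in Control 1 to 4. The median of their log2 fold changes was 1.10, beside 0.03 over all genes tested, and 9 of 10 were above 0, beside 52.7% of all genes. No gene of the 10 passed an adjusted p of 0.05 in edgeR, where 0.0273% of all genes were called and 0.0182% were called higher. At an unadjusted p under 0.05, 7 of the 10 were higher in Prmt5 KO, beside 4.47% of all genes, and 0 were lower, beside 3.69%. For 5 genes (Cdkn1a, Btg2, Gtse1, Phlda3 and Sesn2) all Prmt5 KO libraries lay above all Control libraries, beside 2.63% of all genes, and for 0 they lay below, beside 2.27%. The same 5 genes passed an adjusted p of 0.05 in DESeq2, which called 1.02% of genes in either direction and 0.591% higher. Of the 10, limma voom called 0 (0.0091% of all genes higher), and edgeR with no filter called 0 (0.0233%). Without Prmt5 KO 1 the median was 1.09, and without Prmt5 KO 1 and 4 it was 1.00, with 7 genes higher at an unadjusted p under 0.05 both times. In bulk RNA of sorted cells, more cells with a transcript and more transcript per cell cannot be told apart.

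**Figure D1:**
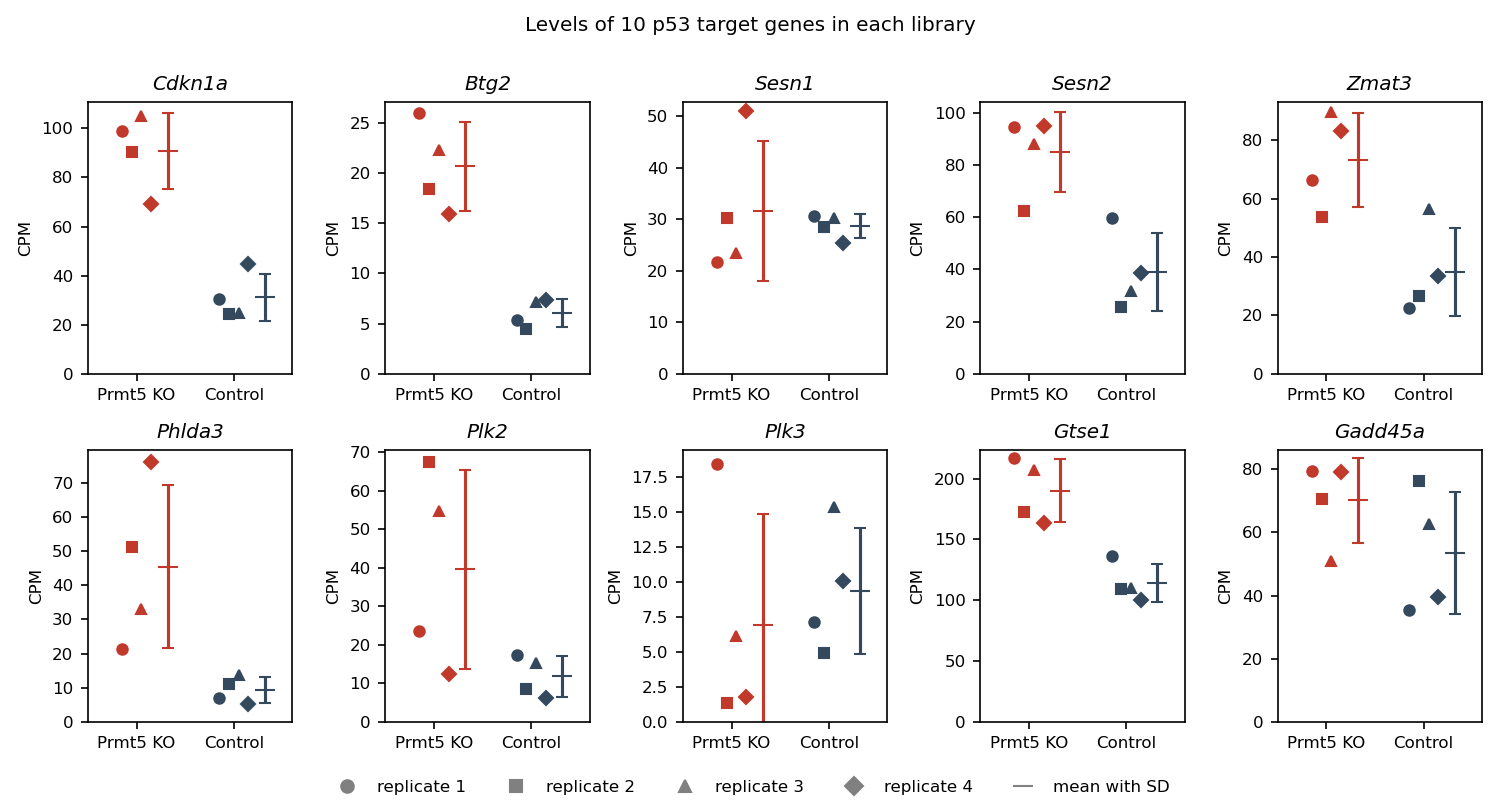
Level of each gene in CPM (y axis, linear from 0) in the 4 Prmt5 KO and 4 Control libraries (x axis), one symbol per replicate number, with mean and SD beside the points (the lower SD bar of Plk3 in Prmt5 KO is clipped at 0). Cdkn1a, Btg2, Sesn2, Phlda3 and Gtse1 have every Prmt5 KO point above every Control point, while Sesn1, Plk3 and Gadd45a overlap widely.

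Among the arrest genes, Cdkn1a, Btg2 and Gtse1 had every Prmt5 KO library above every Control library. Cdkn1a (ENSMUSG00000023067, GRCm38 chromosome 17, 29090976 to 29100727, plus strand) encodes the p21 inhibitor of cyclin-dependent kinases. It was at 99.0, 90.3, 105 and 69.3 CPM in Prmt5 KO 1 to 4 and at 30.6, 24.6, 24.7 and 44.7 CPM in Control 1 to 4. The lowest Prmt5 KO library, number 4, was still above the highest Control library, also number 4. The log2 fold change was 1.53 with a standard error of 0.286 (unadjusted p = 0.000121, adjusted p = 0.147 in edgeR), and it stood at rank 9 by p among all genes tested. DESeq2 gave an adjusted p of 0.000123.

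Btg2 (ENSMUSG00000020423, chromosome 1, 134075170 to 134079120, minus strand) encodes an antiproliferative protein that brings messenger RNAs to the deadenylase complex. It was scarce, at 26.0, 18.4, 22.3 and 16.0 CPM in Prmt5 KO 1 to 4 and 5.41, 4.46, 7.13 and 7.39 CPM in Control 1 to 4. All Prmt5 KO libraries were above all Control libraries, where the lowest value rested on 10 counts (95% exact Poisson interval 2.14 to 8.21 CPM, covering counting error only). Its log2 fold change was 1.76 with a standard error of 0.489 (adjusted p = 0.325 in edgeR and 0.0259 in DESeq2).

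Gtse1 (ENSMUSG00000022385, chromosome 15, 85859745 to 85876573, plus strand) encodes a microtubule-binding protein of the G2 phase that, in human cells, also draws p53 out of the nucleus. With 217, 172, 207 and 163.5 CPM in Prmt5 KO 1 to 4 and 137, 109, 110 and 100.1 CPM in Control 1 to 4, it had the smallest relative spread of the 10 within Prmt5 KO. The groups did not overlap, although the difference was modest: the log2 fold change was 0.73 with a standard error of 0.183 (adjusted p = 0.261 in edgeR and 0.0280 in DESeq2).

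Gadd45a (ENSMUSG00000036390, chromosome 6, 67035096 to 67037457, minus strand) encodes a small stress protein that activates the kinase MAP3K4 upstream of p38 and JNK. It was at 79.5, 70.7, 51.0 and 79.3 CPM in Prmt5 KO 1 to 4 and 35.3, 76.3, 62.5 and 39.6 CPM in Control 1 to 4. The groups overlapped, and the Control libraries formed a low pair (1 and 4) and a high pair (2 and 3), the high pair being the shallowest libraries. The log2 fold change of 0.40 (standard error 0.304, adjusted p = 0.786 in edgeR) was 0.91 without Control 2 and 3 (unadjusted p = 0.0294, adjusted p = 0.809). It was 0.20 without Prmt5 KO 1 and 4, 0.24 without Control 1, 0.28 without Control 4 and 0.63 without Control 2, with an unadjusted p of 0.05 or more in each.

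The polo-like kinases Plk2 and Plk3 did not follow each other. Plk2 (ENSMUSG00000021701, chromosome 13, 110395046 to 110400844, plus strand), a kinase of centriole duplication, was at 23.6, 67.4, 54.8 and 12.5 CPM in Prmt5 KO 1 to 4 and 17.4, 8.48, 15.4 and 6.33 CPM in Control 1 to 4. Prmt5 KO 2 and 3 were far above every Control library, while Prmt5 KO 4 lay inside the Control range. The log2 fold change was 1.74 with a standard error of 0.556 (adjusted p = 0.418 in edgeR and 0.0846 in DESeq2). It was 2.36 without Prmt5 KO 1 and 4, the libraries that stood apart, and 1.36 without Prmt5 KO 2.

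Plk3 (ENSMUSG00000028680, chromosome 4, 117128655 to 117133963, minus strand), a stress-activated relative, was the 1 gene of the 10 with a negative log2 fold change (-0.42, standard error 0.819, adjusted p = 0.948 in edgeR). It was at 18.4, 1.36, 6.10 and 1.74 CPM in Prmt5 KO 1 to 4 and 7.10, 4.91, 15.4 and 10.03 CPM in Control 1 to 4. The highest and the lowest library were both Prmt5 KO. The values of Prmt5 KO 2 and 4 rested on 7 counts each (95% exact Poisson intervals 0.545 to 2.80 and 0.701 to 3.59 CPM). These intervals cover counting error only, not that of amplification. Prmt5 KO 1, the high library, is the one with the high somatic markers, whose part in the Plk3 value was not tested. Without it the log2 fold change was -1.57 (unadjusted p = 0.0674, adjusted p = 0.598).

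**Figure D2:**
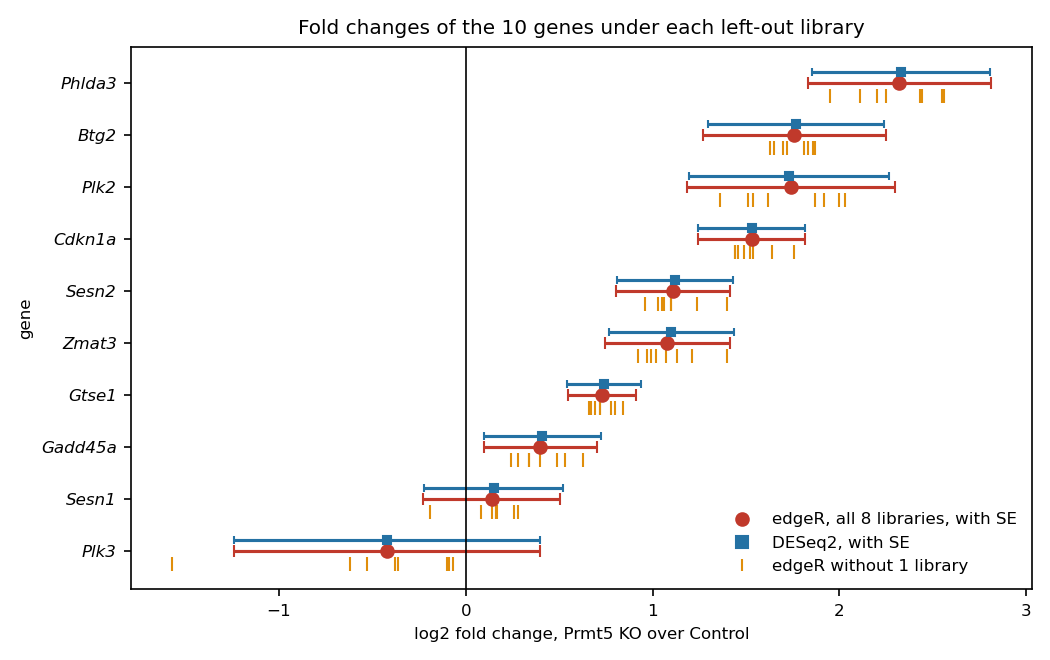
Log2 fold change of Prmt5 KO over Control (x axis) for each gene (y axis), from edgeR on all 8 libraries (red circles, bars are standard errors), DESeq2 (blue squares, standard errors) and edgeR with each library left out in turn (orange ticks). From Phlda3 (2.32) down to Gadd45a (0.40) every estimate stays above 0, Sesn1 lies on both sides of 0, and Plk3 stays below 0 with the widest range.

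Of the genes that restrain growth signalling, Phlda3 and Sesn2 separated the groups and Sesn1 did not. Phlda3 (ENSMUSG00000041801, chromosome 1, 135766119 to 135769136, plus strand) encodes a small lipid-binding protein that competes with Akt at the membrane. It was at 21.3, 51.4, 33.0 and 76.0 CPM in Prmt5 KO 1 to 4 and 7.10, 11.2, 13.7 and 5.28 CPM in Control 1 to 4. Every Prmt5 KO library was above every Control library, yet the Prmt5 KO values themselves spanned a 3.57-fold range. Its log2 fold change was the largest of the 10, at 2.32 with a standard error of 0.490 (unadjusted p = 0.000384, adjusted p = 0.202 in edgeR; 0.000718 in DESeq2).

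The sestrins Sesn1 and Sesn2 encode proteins that bind the GATOR2 complex and hold down mTOR complex 1. Sesn2 (ENSMUSG00000028893, chromosome 4, 132492032 to 132510501, minus strand) had 94.4, 62.4, 88.1 and 94.7 CPM in Prmt5 KO 1 to 4 and 59.7, 25.4, 31.8 and 38.7 CPM in Control 1 to 4. The groups came close, since Prmt5 KO 2 was just above Control 1. The log2 fold change was 1.11 with a standard error of 0.304 (adjusted p = 0.311 in edgeR and 0.0398 in DESeq2), and 0.79 without Control 2 and 3.

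Sesn1 (ENSMUSG00000038332, chromosome 10, 41809935 to 41908424, plus strand) was at 21.6, 30.2, 23.5 and 51.1 CPM in Prmt5 KO 1 to 4 and 30.6, 28.6, 30.2 and 25.3 CPM in Control 1 to 4. Prmt5 KO 4 was above all other libraries, and Prmt5 KO 1 and 3 were below all Control libraries. The log2 fold change was 0.14 with a standard error of 0.367 (adjusted p = 0.966 in edgeR), and -0.19 without Prmt5 KO 4 (adjusted p = 0.934). It was the 1 library whose removal on its own turned the sign.

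Zmat3 (ENSMUSG00000027663, chromosome 3, 32334792 to 32366014, minus strand) encodes a zinc finger protein that binds RNA and acts on transcript stability and splicing. It was at 66.4, 53.9, 89.6 and 83.2 CPM in Prmt5 KO 1 to 4 and 22.5, 26.8, 56.5 and 33.6 CPM in Control 1 to 4. Control 3 was above Prmt5 KO 2, and otherwise the groups were apart. The log2 fold change was 1.08 with a standard error of 0.333 (adjusted p = 0.409 in edgeR and 0.0800 in DESeq2), and 1.40 without Control 3.

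The Prmt5 KO libraries were not ranked alike by these genes. Prmt5 KO 4 was the highest for Phlda3, Sesn1 and Sesn2 and the lowest for Cdkn1a, Btg2, Plk2 and Gtse1. Prmt5 KO 1 was the highest for Btg2, Plk3, Gtse1 and Gadd45a and the lowest for Phlda3 and Sesn1. The coefficient of variation over the Prmt5 KO libraries ran from 13.8% for Gtse1 and 17.2% for Cdkn1a to 52.5% for Phlda3, 65.2% for Plk2 and 115% for Plk3.

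Per kilobase of transcript, the order of the genes in Prmt5 KO began with Gtse1 (72.0 ± 9.89 CPM per kilobase), Gadd45a (57.4 ± 10.9), Cdkn1a (47.5 ± 8.15) and Phlda3 (31.7 ± 16.6), and ended with Plk3 (2.75 ± 3.17; SD, n = 4 each). In Control it began with Gadd45a (43.7 ± 15.9 CPM per kilobase), Gtse1 (43.2 ± 5.97) and Cdkn1a (16.3 ± 4.95), and ended with Btg2 (2.22 ± 0.510; SD, n = 4 each). Neighbours in the Prmt5 KO order all had overlapping library ranges. In Control only Gtse1 and Cdkn1a, next to each other in the order, did not overlap. Btg2, last in Control, was at rank 9 in Prmt5 KO with a mean of 7.54 CPM per kilobase, and Phlda3 stood at rank 4 in Prmt5 KO and at rank 6 in Control.

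The transcript make-up of the genes was compared as a percent of the transcript used for the gene, with no test, since transcripts of a gene share reads. For Cdkn1a, the transcript from the upstream start, Cdkn1a-202, was at 19.4% ± 4.74 in Prmt5 KO and 16.5% ± 6.55 in Control of the counts of Cdkn1a-201 (SD, n = 4 each). Phlda3-202, annotated as a processed transcript, was at 48.6% ± 8.88 in Prmt5 KO and 50.0% ± 6.78 in Control of Phlda3-201. The retained-intron transcript Gadd45a-204 was at 67.6% ± 2.83 in Prmt5 KO and 66.3% ± 2.39 in Control of the spliced Gadd45a-201. All 3 shares overlapped between the groups. Sesn1-201 and Sesn1-202 had nearly the same counts (mean share 96.7% in Prmt5 KO and 97.0% in Control), as did Zmat3-201 beside Zmat3-203 and the 3 Plk3 transcripts, so use of the Sesn1 start sites cannot be read from these counts.

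Some of the genes overlap or resemble other genes, and whether reads were shared was not tested. Exons of the Gadd45a transcript overlap 238 bases of E230016M11Rik on the opposite strand, which had 299 counts over all libraries against 2216 for Gadd45a, so the Gadd45a level is uncertain. The overlaps of Cdkn1a with AC167363.2 (93 bases) and of Plk3 with Tctex1d4 (84 bases) are shorter, and those partners had 0 and 15 counts. Zmat3 holds stretches of 105 to 142 bases with at least 95.2% identity to transcripts of Bbs1, Chek2, Imp4 and Wdr33. These had 51, 1269, 6299 and 2634 counts over all libraries against 2094 for Zmat3, so the Zmat3 level is also uncertain.

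Relatives of the 10 genes were read beside them to see whether family members outside the set moved too. Of 21 listed relatives 12 were tested, 0 were called in edgeR, 0 were higher and 1 was lower at an unadjusted p under 0.05, and the median log2 fold change was 0.18. The lower one was Zmat2, a splicing factor that shares the zinc finger type of Zmat3, at 45.5 ± 6.43 CPM in Prmt5 KO and 88.4 ± 18.9 CPM in Control (SD, n = 4 each; adjusted p = 0.292 in edgeR and 0.0265 in DESeq2). Btg1, the closest relative of Btg2, was at 24.6 ± 5.84 and 14.5 ± 4.73 CPM (SD, n = 4 each; adjusted p = 0.680 in edgeR). Without Prmt5 KO 1 the median of the relatives was -0.05, and with no filter on low counts it was 0.41 over 20 relatives.

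A ratio within a library does not depend on library scaling, so 6 of the 8 pairs, those in which both genes were tested, were compared this way as a description. The Btg2 to Btg1 ratio was 0.981, 0.576, 1.18 and 0.753 in Prmt5 KO 1 to 4 and 0.360, 0.455, 0.342 and 0.600 in Control 1 to 4. Prmt5 KO 2 lay just inside the Control range and the other 3 were above it. The Sesn2 to Sesn3 ratio averaged 1.86 ± 0.454 in Prmt5 KO and 1.06 ± 0.444 in Control, and the Sesn1 to Sesn3 ratio 0.744 ± 0.460 and 0.772 ± 0.0633 (SD, n = 4 each). The Plk2 to Plk1 ratio was 0.430 and 0.621 in Prmt5 KO 2 and 3, but 0.130 and 0.0394 in Prmt5 KO 1 and 4, against 0.0404 to 0.137 in Control. The Phlda3 to Phlda1 ratio averaged 6.56 ± 2.80 in Prmt5 KO and 5.84 ± 4.93 in Control, where Phlda1 rested on as few as 2 counts. The Plk3 to Plk1 ratio averaged 0.0462 ± 0.0471 and 0.0657 ± 0.0289 (SD, n = 4 each). For all 6 ratios the groups overlapped, so none of these 6 genes was set apart from its relative in every library. Cdkn1a, Gadd45a, Gtse1 and Zmat3 were not compared this way.

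**Figure D3:**
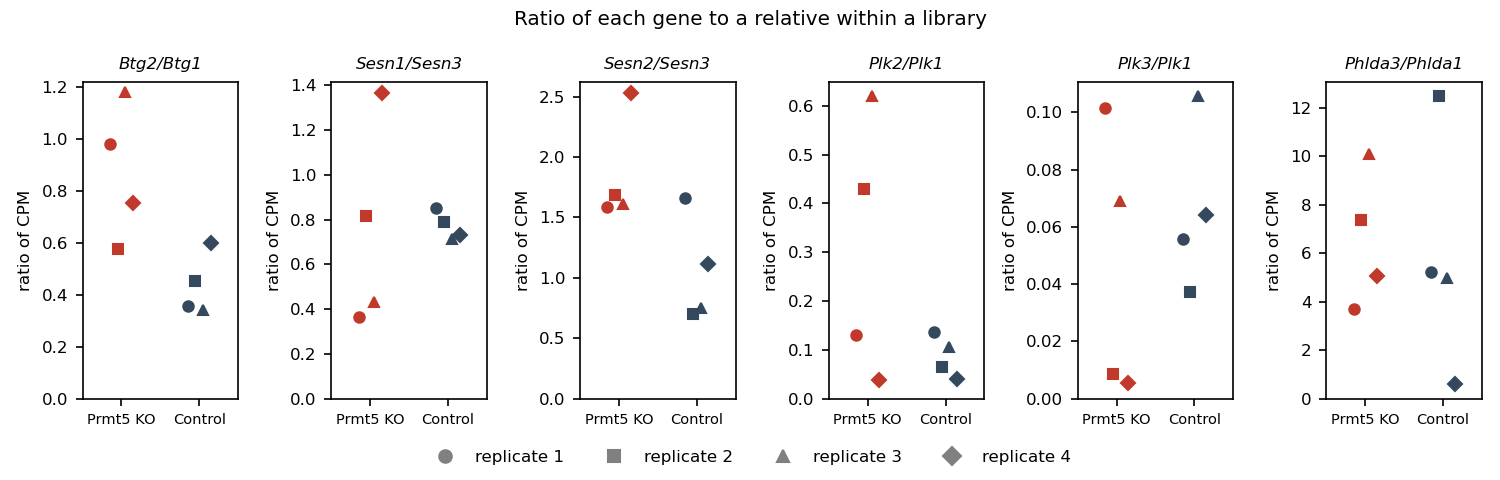
Ratio of the CPM of each gene to that of a relative (y axis, linear from 0, own scale per panel) in the 4 Prmt5 KO and 4 Control libraries (x axis), one symbol per replicate number. Btg2 to Btg1 and Sesn2 to Sesn3 are mostly higher in Prmt5 KO, Plk2 to Plk1 only in Prmt5 KO 2 and 3, and the groups overlap in every panel.

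Other parts of the p53 pathway were counted from lists. Among p53 and its regulators (14 tested), 2 rose and 0 fell: Ccng1, to 219 ± 22.8 CPM in Prmt5 KO against 55.7 ± 9.10 CPM in Control, and Mdm2, to 254 ± 24.3 CPM against 120 ± 13.5 CPM (SD, n = 4 each; adjusted p = 0.00137 and 0.0490 in edgeR). The Ccng1 call held under 17 of 18 alternatives, with an adjusted p of 0.176 without Control 2 and 3. The Mdm2 call held under 3 of 18; its adjusted p was 0.0933 in limma voom and 0.0578 to 0.261 on leaving out any single library. At an unadjusted p under 0.05, 6 of the 14 were higher and 0 lower, with a median of 0.53 for the log2 fold changes. Over all genes these shares were 4.47% and 3.69%, and they also stand beside the counts of the other lists. Among targets of cell death and repair (23 tested), 0 were called in edgeR and 4 in DESeq2, all higher, beside 0.591% of all genes. In this list 7 were higher and 0 lower at an unadjusted p under 0.05. The median was 0.66, and it was 0.43 without Prmt5 KO 4. Their smallest p belonged to Eda2r, a death receptor (log2 fold change 2.29, adjusted p = 0.121 in edgeR), and Ercc5, a nuclease of nucleotide excision repair (2.07, adjusted p = 0.202). The Cdkn1a and Phlda3 log2 fold changes of 1.53 and 2.32 lay on either side of that of Ccng1 (1.97), whose standard error was smaller (0.195).

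The proteins on which these targets act were read the same way. Of 12 tested cyclins, kinases and Pcna bound by p21, 0 were called, 0 passed at an unadjusted p under 0.05 in either direction, and the median log2 fold change was -0.14 (0.01 without Control 1). Cyclin E1, Ccne1, was at 53.4 ± 22.8 CPM in Prmt5 KO and 77.8 ± 11.3 CPM in Control (SD, n = 4 each; adjusted p = 0.731 in edgeR), and cyclin B1, Ccnb1, had a log2 fold change of 0.28. Cell cycle genes under E2F and the DREAM complex are known to be repressed with help from p21. Their list also held genes that encode Rb family, E2F and DREAM proteins themselves, so its values are not those of repressed genes alone. Among 48 tested, 0 were called in edgeR, 5 were higher and 0 lower at an unadjusted p under 0.05, and the median was 0.18. Without Prmt5 KO 4 that median was 0.03, and without Prmt5 KO 1 and 4 it was 0.09. Kif11, a spindle motor, was at 200.5 ± 43.3 CPM in Prmt5 KO and 110 ± 14.6 CPM in Control (SD, n = 4 each; adjusted p = 0.220 in edgeR and 0.0135 in DESeq2), and for Nusap1 the log2 fold change was 0.52 (adjusted p = 0.444).

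Growth and stress kinase genes gave 0 calls in edgeR. For Akt and mTOR signalling, with 34 genes tested, 0 passed at an unadjusted p under 0.05 in either direction, with a median log2 fold change of 0.05. Ddit4, another mTOR inhibitor, was scarce, at 9.60 ± 4.33 CPM in Prmt5 KO and 4.02 ± 1.56 CPM in Control (SD, n = 4 each; adjusted p = 0.659 in edgeR), and Rps6kb1, the S6 kinase, had a log2 fold change of 0.59. For p38 and JNK signalling, with 10 tested and a median of 0.04, 1 gene was higher at an unadjusted p under 0.05, the kinase Map2k4 (log2 fold change 0.51, adjusted p = 0.580 in edgeR), and Mapk13 was at -0.86. The E2F and DREAM list shares 4 genes with the other lists.

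Btg2, Gadd45a, Plk2 and Plk3 are also known to respond to cell handling, so genes of dissociation stress were set beside them. Of 11 tested, 0 were called in edgeR, and 1 (Ppp1r15a) was higher and 0 lower at an unadjusted p under 0.05. The median log2 fold change was -0.12. The summed level of the 16 with counts was 151 to 213 CPM in Prmt5 KO and 153 to 216 CPM in Control. Ppp1r15a was at 15.3 ± 10.4 and 4.79 ± 3.71 CPM (SD, n = 4 each; adjusted p = 0.580 in edgeR), and Klf4 at 1.57 ± 1.45 and 4.53 ± 3.67 CPM (adjusted p = 0.681 in edgeR). Fos and Jun were named after their values were seen and were too scarce to be tested. Fos was at 0.388 to 0.748 CPM in Prmt5 KO, on 2 or 3 counts each, and 1.34 to 11.5 CPM in Control, without overlap. Jun went the other way by mean, at 7.85 ± 11.3 CPM in Prmt5 KO and 1.64 ± 0.444 CPM in Control (SD, n = 4 each). Its highest value was 24.7 CPM in Prmt5 KO 4, and its groups overlapped. The part of cell handling in the results was not tested.

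**Figure D4:**
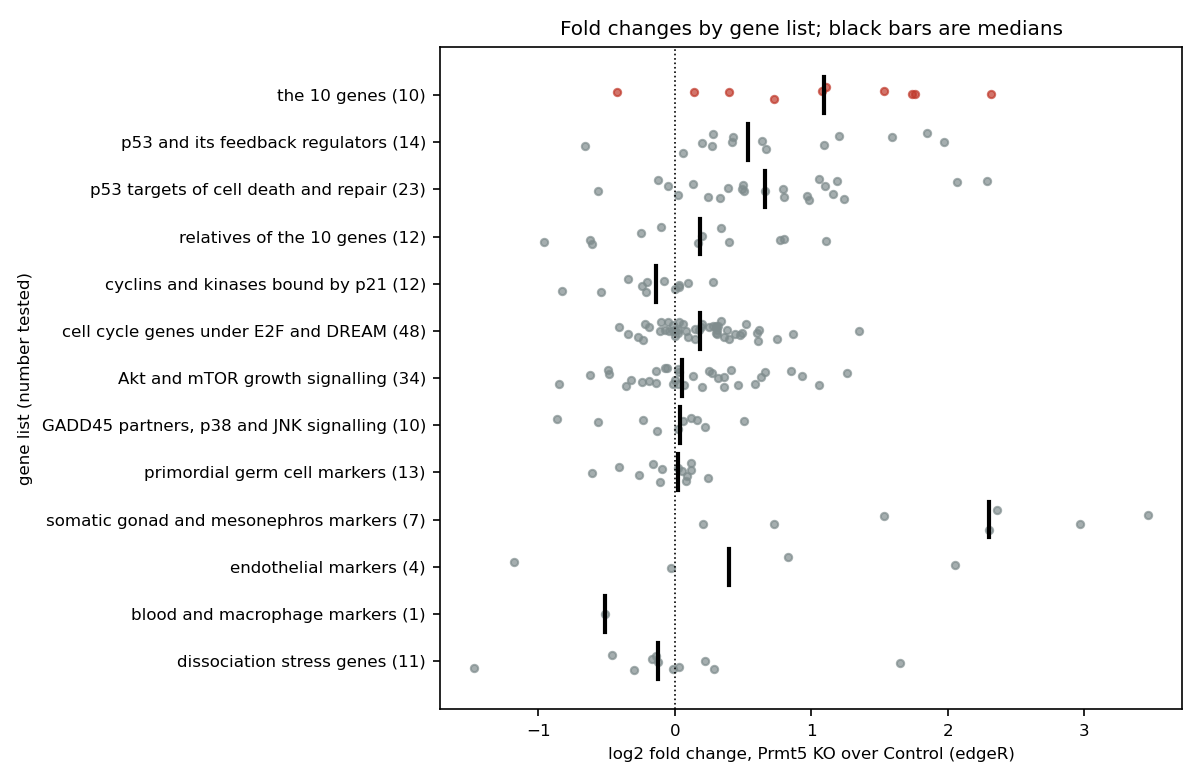
Log2 fold change of Prmt5 KO over Control (x axis) for each tested gene (points, spread vertically for legibility) of the 10 genes (red) and of 12 other lists (grey), with list medians as black bars. The 10 genes have a median of 1.10, p53 regulators 0.53 and death and repair targets 0.66, while cyclins, E2F and DREAM genes and growth signalling lie near 0; the somatic marker median of 2.30 was -0.11 without Prmt5 KO 1.

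The somatic markers varied mainly with a single library. Of 7 tested 0 were called in edgeR and 3 were higher at an unadjusted p under 0.05. Acta2 was at 208 CPM in Prmt5 KO 1, 2.71 to 5.95 CPM in the other Prmt5 KO libraries and 3.72 to 7.13 CPM in Control. The collagen gene Col1a1 was at 92.9 CPM in Prmt5 KO 1, 1.75 to 2.53 CPM in the other Prmt5 KO libraries and 2.11 to 6.25 CPM in Control. Mfge8, the most abundant somatic marker, was at 152 to 177 CPM in Prmt5 KO and 114 to 180 CPM in Control, and it was not set apart in Prmt5 KO 1. In Prmt5 KO 1 the 10 genes summed to 667 CPM, inside the 618 to 680 CPM of the other Prmt5 KO libraries. Without Prmt5 KO 1 the log2 fold changes were 1.49 for Cdkn1a, 1.63 for Btg2, 2.56 for Phlda3, 1.06 for Sesn2, 1.13 for Zmat3 and 1.92 for Plk2. Of 4 tested endothelial markers 0 were called in edgeR, with a median log2 fold change of 0.40 (-0.57 with no filter), and the 1 tested blood marker, Csf1r, was at -0.51. The endothelial receptor gene Tek was at 52.3 ± 28.1 CPM in Prmt5 KO and 12.3 ± 11.2 CPM in Control (SD, n = 4 each; adjusted p = 0.409 in edgeR and 0.0430 in DESeq2), Egfl7 at 5.43 ± 2.49 and 12.4 ± 6.87 CPM, while Pecam1, the most abundant endothelial marker, was at 276 ± 46.2 and 283 ± 46.1 CPM. Pecam1 made up most of the endothelial sum, and the cells it came from are not known. The part of these other cells in the results was not tested.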

How the data were processed

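Reads were counted per Ensembl transcript by the authors, and the deposited files hold these raw counts for every transcript that had 1 or more. Per the labels' protocols, RNA came from sorted cells and 50 pg went into each library by a single-cell amplification method. The submitters' processing notes name GRCm38 and mm10; how reads were aligned and assigned, with which annotation and strand rule, is not stated in the labels or file headers. Identifiers were matched to GENCODE M21 (64258 of 66262, 97.0%), and each gene was represented by whichever of its transcripts had most counts summed over all 8 libraries. Genes passed edgeR's filterByExpr (minimum count 10, minimum total 15); Prmt5 KO was compared with Control after TMM scaling by edgeR's robust quasi-likelihood test, with Benjamini-Hochberg adjustment over all 10990 genes. The standard error is the log2 fold change divided by the square root of F. Values after ± are SD. The 18 alternatives covered scaling, tool, filter, robust estimation, replicate block, gene value and left-out libraries.

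The genes and lists were chosen with earlier results of these data known, so counts over them are descriptions. Besides the 10 genes, those named were the called genes of each list, or else its 2 with the smallest p, the top marker by level for each cell type, and the relatives used in ratios. The 20-base site search, Fos and Jun were chosen after the data were seen. Near-identical copies were sought with BLAST (at least 95% identity over 100 bases). Chi-square statistics per degree of freedom between libraries of a group ran from 7.66 to 56.2, so no library of a group is a resequencing of another. Separate libraries made from the same RNA could not be recognised this way, and pairs across the groups were not compared. The software was BLAST 2.17.0, DESeq2 1.42.0, limma 3.58.1 and edgeR 4.0.16 under R 4.3.3.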

Additional observations from a re-analysis of the deposited data

Results flagged for a closer look

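Among 34 sets of 4 values from 1 group each (levels, ratios and means of the 10 genes), a search was made for a single library set well off from the remaining 3. Chance would single out about 1 set in 20, or 1.7 of the 34, and only 1 was singled out. The Sesn2 to Sesn3 ratio was singled out in Prmt5 KO 4, at 2.53 against 1.59 to 1.69 in the other Prmt5 KO libraries.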

How the results depend on the processing

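Over 18 alternatives the 10 genes kept a median log2 fold change between 0.98 and 1.23, 7 or 8 genes higher at an unadjusted p under 0.05, and 5 to 7 genes with groups apart (also with unscaled library totals, tried after seeing the data). The number called stayed 0 except in DESeq2, which called 5. The Sesn1 log2 fold change ran from -0.19 (without Prmt5 KO 4) to 0.28 (without Prmt5 KO 1) on leaving out single libraries, and was -0.09 without Prmt5 KO 1 and 4. Over all genes edgeR called 3, against 107 in DESeq2, 1 in limma voom, 7 with no filter, 1 with transcripts summed, 0 without Control 2 and 3 (713 at an unadjusted p under 0.05), 1 without Prmt5 KO 1 and 4, and 1 to 2 on leaving out any single library; the cause was not tested. Deviations of libraries with the same number had weak correlations, all above 0 (0.00226 to 0.0694). Those of libraries with different numbers ran from -0.0937 to 0.036, so a weak pairing by number is not excluded. With the replicate number as a block 1 gene and 0 of the 10 were called. Depth limits Plk3 and Btg2 most.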
